A study of Mus musculus with 6 samples.

Results

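The messenger RNAs of 5 genes whose proteins work in the lysosome, Grn, Psap, Npc2, Lamp1 and Lamp2, were followed in neutrophils with and without the microRNA miR-223. They were read by 10 probe sets, chosen by identifier from the 45101 of a mouse Affymetrix expression array: 3 for Grn, 1 for Psap, 3 for Npc2, 1 for Lamp1 and 2 for Lamp2. The gene of each probe set came with the selection and was not checked against an array annotation here. In RefSeq on GRCm38.p6, Grn lies at chr11:102430507-102436809, Psap at chr10:60277628-60302600, Npc2 at chr12:84754559-84773112, Lamp1 at chr8:13159161-13175338 and Lamp2 at chrX:38399647-38456460. One group held 3 arrays of miR-223 null neutrophils and the other 3 arrays of wild-type neutrophils. Both were grown from bone marrow progenitors for 6 days in a SILAC medium, made for isotope labelling of proteins, with G-CSF and SCF, and for 42 further hours without SCF, after which live cells were selected on magnetic beads. Mouse strain, sex, age and the make-up of the null allele are not given in the labels. Nothing in the labels ties a replicate to its own mouse or culture, so p-values measure the spread between these arrays alone, and that spread may be technical. Values are log2 intensities, on which 1 unit is a doubling of signal. With the other rows unnamed, the level of miR-223, neutrophil markers and markers of macrophages, which are rich in these lysosomal mRNAs, were not analysed here. In such bulk samples fewer cells of a type and less RNA per cell cannot be told apart.

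The lysosome is the acidic compartment in which cells digest proteins, lipids and particles taken up from outside. Progranulin, the product of Grn, is a secreted chain of granulin repeats that is also carried to the lysosome, and neutrophil elastase and proteinase 3 can cut it into granulins. Prosaposin, from Psap, is its partner in transport and is cut into the saposins, which help lysosomal enzymes reach sphingolipids. Npc2 is a soluble carrier that picks up cholesterol freed in the lysosome and hands it to the membrane protein Npc1. Lamp1 and Lamp2 are heavily glycosylated proteins that line the lysosomal membrane. Many lysosomal genes carry E-boxes with the letters CACGTG near their start, to which the transcription factor TFEB binds. A microRNA lowers mRNAs that pair with its seed, bases 2 to 8 of the mature strand.

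The mature strands of miR-223, which null cells lack by their label, are shown with the seed in capitals. Both come from RefSeq, build GRCm38.p6, chromosome X, plus strand: the 3p strand at chrX:96242884-96242905 and the 5p strand at chrX:96242842-96242864.
mmu-miR-223-3p: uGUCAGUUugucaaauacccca
mmu-miR-223-5p: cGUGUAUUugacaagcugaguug
Whether the 5 mRNAs carry sites for these seeds was not analysed here. Promoter windows are shown for Lamp1 and Npc2, the 2 genes with a probe set on which the genotypes did not overlap. Null arrays lay wholly above wild-type arrays there, as on 8.12% of the 27022 probe sets tested. Each runs 5′ to 3′ on the gene's strand, from 250 bases before the RefSeq start to 50 bases from it. The Lamp1 window lies at chr8:13158911-13159210 on the plus strand and the Npc2 window at chr12:84773063-84773362 on the minus strand of GRCm38.p6. Capitals mark CACGTG in Lamp1 and, on either strand, the GC box core CCGCCC in Npc2.
Lamp1: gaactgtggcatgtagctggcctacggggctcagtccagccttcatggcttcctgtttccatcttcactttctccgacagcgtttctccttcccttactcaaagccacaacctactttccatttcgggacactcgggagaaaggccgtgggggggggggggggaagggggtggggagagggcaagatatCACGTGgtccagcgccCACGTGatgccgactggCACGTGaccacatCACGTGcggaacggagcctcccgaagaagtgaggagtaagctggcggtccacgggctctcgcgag
Npc2: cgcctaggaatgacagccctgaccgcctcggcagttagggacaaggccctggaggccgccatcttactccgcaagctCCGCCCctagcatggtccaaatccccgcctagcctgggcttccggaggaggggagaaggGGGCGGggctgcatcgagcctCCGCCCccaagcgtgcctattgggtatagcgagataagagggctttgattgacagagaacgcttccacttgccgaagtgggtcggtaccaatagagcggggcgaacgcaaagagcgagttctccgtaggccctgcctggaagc
The Lamp1 window held 4 copies of CACGTG, which begin at positions -61, -45, -28 and -15, where the first base of the gene is 1. Each of the 4 has a T before it on one strand or the other, which makes the longer form TCACGTG. The 6-letter motif reads the same on both strands, and at least 1 copy was present in 7.15% of 32851 such windows of mouse genes. Windows with 4 or more copies numbered 8, or 0.0244%. No copy was found in the windows of Grn, Npc2 and Lamp2 or in either of the 2 Psap windows. The Npc2 window held 3 GC box cores, searched on both strands, against 2 in Lamp2, 1 in Grn, 1 in the first Psap window and 0 in Lamp1. At least 3 were present in 10.7% of all windows. These matches describe the letters only, no binding was measured, and no link between motifs and genotype differences was tested.

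Of the 10 probe sets, 1 for Npc2 differed clearly more between the genotypes than the other 9. Probe set 1455768_AT for Npc2 was 1.53-fold higher in null neutrophils, and this difference passed the test only once arrays were compared within replicate number or replicate 1 was left out. The other 2 Npc2 probe sets, all 3 for Grn and those for Psap, Lamp1 and Lamp2 differed by -0.00055 to 0.16 log2 units. Without a block, 0 of the 10 passed a limma Benjamini-Hochberg adjusted p of 0.05, where 0.189% of the 27022 probe sets tested did. In the same fit, 1 of the 10, this Npc2 probe set, had an unadjusted limma p under 0.05 and a 95% interval above 0. Of the 27022 probe sets tested, 2881 had such a p in either direction. With the replicate number as a block, 1 of the 10 passed, against 10% of all probe sets, so the share of members called was that of the array as a whole. In that blocked fit 6 of the 10 had a 95% interval above 0 and an unadjusted limma p under 0.05. Counting both directions, 7073 of the 27022 probe sets had such a p. The same 1 passed without both replicate 1 arrays and no block, against 3.97% of all probe sets, and with the block but no intensity trend in the variance, against 0.707%. All 10 passed the filter on dim probe sets. Their median difference was 0.11 log2 units, against -0.01 for all probe sets tested. In absolute size the medians were 0.11 for both.

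**Figure D1:**
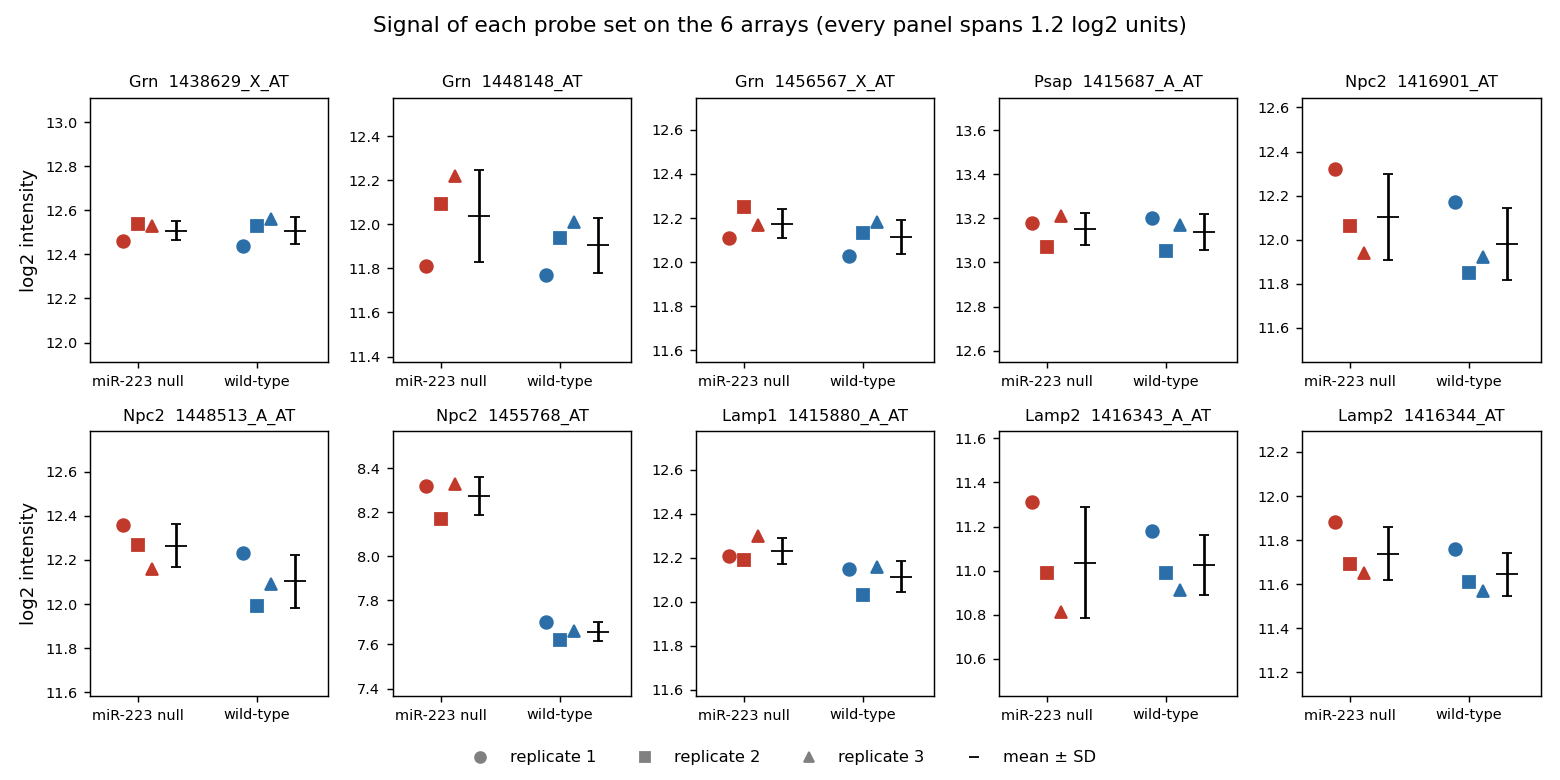
Log2 intensity of the 10 probe sets on each array (vertical axis; every panel spans 1.2 log2 units), with miR-223 null arrays at left in red and wild-type arrays at right in blue. Symbols mark the replicate number and bars the mean ± SD of 3 arrays; for Npc2 1455768_AT the null arrays read 8.17 to 8.33 and the wild-type arrays 7.62 to 7.70.

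The replicate numbers matter here because both replicate 1 arrays stood apart from the other 4. Deviations from the group mean over the 27022 probe sets correlated at 0.70, 0.30 and 0.48 between same-numbered arrays, while null 1 correlated at -0.51 with wild-type 2 and at -0.52 with wild-type 3. Deviations within a genotype cancel out for each probe set, so these negative values follow largely from the 0.70 and are no separate evidence. All of these correlations are across probe sets, which are not independent replicates. Array medians lay between 4.71 and 4.73, so the deposited values were already on one scale, and every difference is relative to the rest of the array.

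Progranulin mRNA was close to equal in the genotypes on the one of its 3 probe sets with the smallest spread. Grn 1438629_X_AT read 12.46, 12.54 and 12.53 in null arrays, against 12.44, 12.53 and 12.56 in wild-type arrays. These values interleave, and the means differed by -0.00055 log2 units, with a 95% interval of -0.13 to 0.13 (limma adjusted p = 0.998). Grn 1456567_X_AT read 12.11, 12.25 and 12.17 in null arrays, against 12.03, 12.13 and 12.18 in wild-type arrays. The wild-type 3 array lay above 2 of the 3 null arrays, and the difference of 0.06 (SE 0.07) did not pass (limma adjusted p = 0.825). The letter X in both identifiers is the manufacturer's mark for probes that can also bind other sequences.

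Grn 1448148_AT, which lacks that mark, had the widest spread of the 3. It read 11.81, 12.09 and 12.22 in null arrays, against 11.77, 11.94 and 12.01 in wild-type arrays. Null was higher in each numbered pair, by 0.04, 0.15 and 0.21 log2 units, while the groups overlapped. The mean difference of 0.13 had a 95% interval of -0.14 to 0.40 (limma adjusted p = 0.764), and with the replicate block of 0.03 to 0.23 (limma adjusted p = 0.0959). It was 0.25 without null 1 (limma adjusted p = 0.311), 0.064 without wild-type 1 and 0.043 without null 3. Set against the mean of the other 2 Grn probe sets on the same array, it differed by 0.10 between genotypes (exact permutation test, two-sided p = 0.5), which is within the spread of the arrays.

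Psap, the prosaposin gene, was close to level as well. Its probe set read 13.18, 13.07 and 13.21 in null arrays, against 13.20, 13.05 and 13.17 in wild-type arrays. The lowest array of each genotype was replicate 2, and the groups overlapped over nearly their whole range. The difference was 0.01 log2 units, with a 95% interval of -0.13 to 0.16 (limma adjusted p = 0.969), which in fold terms is 0.913 to 1.12. With the block the interval narrowed to -0.06 to 0.09 (limma adjusted p = 0.826).

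Npc2, the cholesterol carrier, was higher in null neutrophils in 3 of 3 numbered pairs on each of its 3 probe sets, but by unequal amounts. Probe set 1455768_AT read 8.32, 8.17 and 8.33 in null arrays, against 7.70, 7.62 and 7.66 in wild-type arrays. Every null array lay above every wild-type array, with a gap wider than the range within either group. Null averaged 8.27 ± 0.09 and wild type 7.66 ± 0.04 (SD, n = 3 each), a difference of 0.62 log2 units (SE 0.10, 95% interval 0.38 to 0.85) that missed the threshold without a block (limma adjusted p = 0.0783). It passed with the block (limma adjusted p = 0.00359), where the pairs differed by 0.62, 0.56 and 0.67. Without both replicate 1 arrays and with no block it was 0.61 (limma adjusted p = 0.0188). Its SE stayed at 0.10 there, and its unadjusted limma p was 0.00028, against 0.00036 on all 6 arrays. Calls over all probe sets rose from 51 to 1072, so the lower adjusted p mainly reflects the array as a whole. Of all probe sets tested, 1.62% differed by at least as much in either direction.

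The other 2 Npc2 probe sets differed less between the genotypes. Npc2 1448513_A_AT read 12.36, 12.27 and 12.16 in null arrays, against 12.23, 11.99 and 12.09 in wild-type arrays. Its groups overlapped because wild-type 1 exceeded null 3, and the difference was 0.16 log2 units, 1.12-fold (95% interval -0.03 to 0.35, limma adjusted p = 0.558, and 0.0718 with the block). Npc2 1416901_AT read 12.32, 12.06 and 11.94 in null arrays, against 12.17, 11.85 and 11.92 in wild-type arrays. The highest array of each genotype was replicate 1, and the difference of 0.12 did not pass (95% interval -0.16 to 0.40, limma adjusted p = 0.789, and 0.130 with the block). It was 0.016 without null 1, 0.060 without wild-type 2, 0.21 without null 3 and 0.22 without wild-type 1. In the blocked fit of replicates 1 and 2 alone, 1448513_A_AT and 1416901_AT both passed, at 0.20 and 0.18 log2 units (limma adjusted p = 0.0372 and 0.0341). Neither passed without replicate 1, at 0.18 and 0.11 (limma adjusted p = 0.115 and 0.310), or without replicate 2, at 0.10 and 0.08 (limma adjusted p = 0.411 and 0.546). That fit called 3 of the 10 members, all for Npc2, against 8.58% of all probe sets.

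The size of the difference was therefore compared between the Npc2 probe sets. The level of 1455768_AT minus the mean of the other 2 was -4.02, -3.99 and -3.72 log2 units in null arrays, against -4.50, -4.30 and -4.35 in wild-type arrays. The genotypes did not overlap on this quantity either, and its mean was 0.47 log2 units higher in null arrays. An exact permutation test gave a two-sided p of 0.1, which is the least possible with 3 arrays a group, and 0.3 after Benjamini-Hochberg adjustment over the 3 within-gene comparisons made, where those for Grn and Lamp2 stayed at 0.5. These comparisons were chosen after the values were seen. Which part of the Npc2 transcript each probe set reads was not analysed here, so the 1.53-fold value belongs to 1 probe set and not to the gene as a whole.

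**Figure D2:**
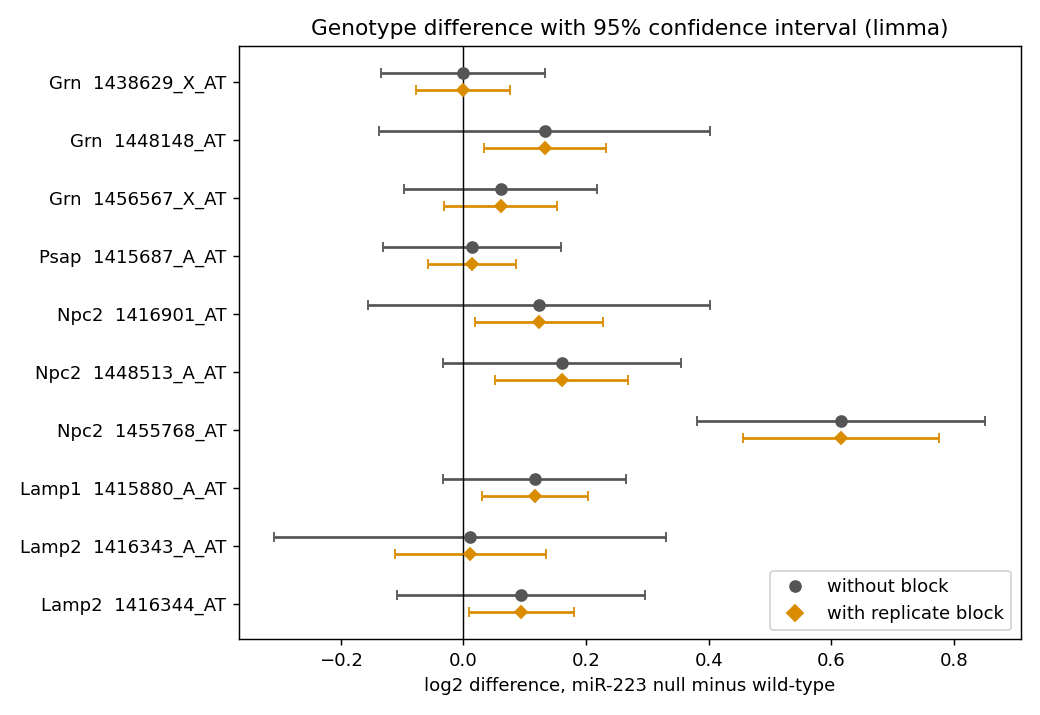
Difference in log2 intensity, miR-223 null minus wild-type (horizontal axis), for each of the 10 probe sets with its 95% confidence interval from limma, without a block (circles) and with the replicate number as a block (diamonds). Npc2 1455768_AT lies at 0.62, and the other 9 lie between -0.00055 and 0.16.

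Lamp1, a main structural protein of the lysosomal membrane, was the other member whose genotypes did not overlap. It read 12.21, 12.19 and 12.30 in null arrays, against 12.15, 12.03 and 12.16 in wild-type arrays. The lowest null array exceeded the highest wild-type array by a narrow margin. Null averaged 12.23 ± 0.06 and wild type 12.11 ± 0.07 (SD, n = 3 each), a difference of 0.12 log2 units or 1.08-fold (SE 0.06, 95% interval -0.03 to 0.27) that did not pass (limma adjusted p = 0.587, and 0.0930 with the block). In all, 2 of the 10 members had null arrays wholly above wild-type arrays, and 8.12% of all probe sets tested did.

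The 2 probe sets for Lamp2, which helps lysosomes fuse with autophagosomes and phagosomes, did not pass. Lamp2 1416344_AT read 11.88, 11.69 and 11.65 in null arrays, against 11.76, 11.61 and 11.57 in wild-type arrays. Each null array lay above its numbered partner, by 0.12, 0.08 and 0.08, yet the groups overlapped, and the difference of 0.09 did not pass (limma adjusted p = 0.777, and 0.153 with the block). Lamp2 1416343_A_AT read 11.31, 10.99 and 10.81 in null arrays, against 11.18, 10.99 and 10.91 in wild-type arrays. Here the pairs differed by 0.13, 0.01 and -0.10, and the mean difference was 0.01 (95% interval -0.31 to 0.33, limma adjusted p = 0.990). The level of 1416344_AT minus that of 1416343_A_AT differed by 0.08 between genotypes (exact permutation test, two-sided p = 0.5).

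Across the members, small differences above 0 were common. Null was higher in 3 of 3 numbered pairs for 6 of the 10 probe sets, 1 for Grn, 3 for Npc2, 1 for Lamp1 and 1 for Lamp2, against 21.6% of all probe sets tested. It was lower in 3 of 3 pairs for 0. Probe sets of 1 gene read the same RNA, so the 10 are not independent. For the 9 members other than 1455768_AT, the unblocked intervals stayed between -0.31 and 0.40 log2 units, so the widest end corresponds to 1.32-fold. These 9 were each brighter than at least 96.1% of probe sets, whereas 1455768_AT was brighter than 79.0%. Such ranks reflect probe brightness as well as mRNA and do not order the genes.

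**Figure D3:**
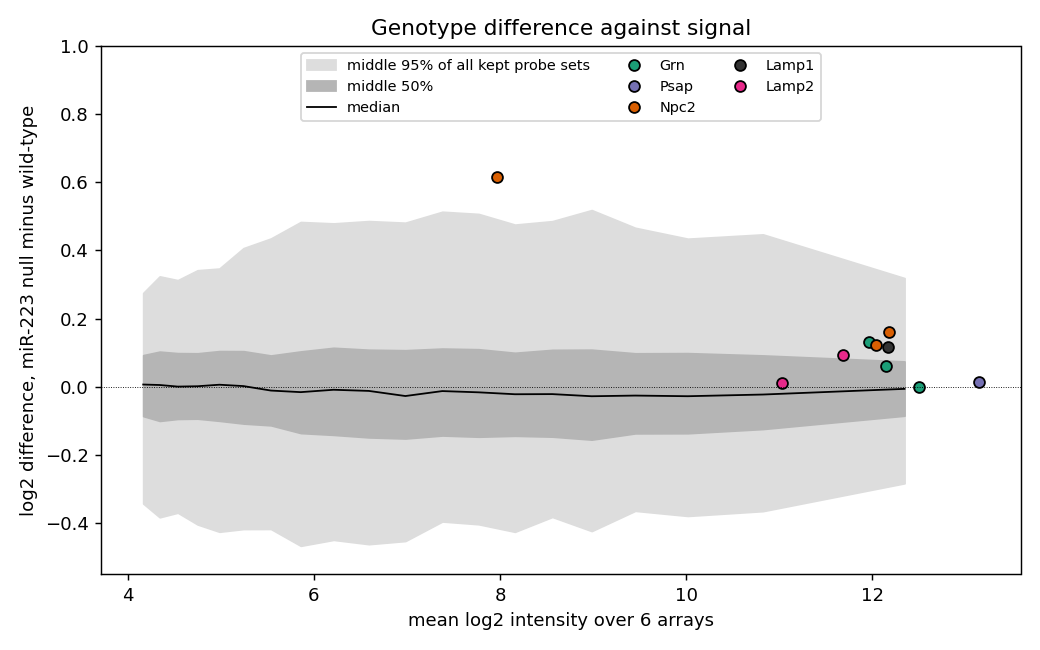
Log2 difference, miR-223 null minus wild-type (vertical axis), against the mean log2 intensity over the 6 arrays (horizontal axis). Points are the 10 members by gene, and the grey bands hold the middle 95% and 50% of all 27022 probe sets tested in 20 groups of near equal size by signal. Npc2 1455768_AT lies above the wider band at 0.62; the bands end at the mean signal of the brightest group, to the left of Psap and of Grn 1438629_X_AT, and the other points lie within the wider band.

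Several members moved more with the replicate number than with genotype. The replicate 1 arrays were set against the mean of replicates 2 and 3 within each genotype, as a description with no test. Grn 1448148_AT stood at -0.34 log2 units in null and -0.21 in wild-type cells, and the other 2 Grn probe sets were also lower on replicate 1 in both. Npc2 1416901_AT was higher in replicate 1 by 0.32 in null and 0.28 in wild-type cells. Lamp2 1416343_A_AT was higher by 0.41 in null and 0.23 in wild-type cells, and 1416344_AT by 0.21 in null and 0.17 in wild-type cells. The Grn probe sets thus read lower, and the Npc2 and Lamp2 probe sets higher, on the replicate 1 arrays, but by unequal amounts. Averaged over genotypes, Grn 1438629_X_AT stood at -0.09 and 1456567_X_AT at -0.11. Offsets at least as large as that of Grn 1448148_AT occurred in 29.8% of all probe sets tested. For Npc2 1416901_AT this share was 26.5%, and for Lamp2 1416343_A_AT 24.2%.

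Npc2 1455768_AT was little affected, at 0.07 in null and 0.06 in wild-type cells. Psap was slightly higher in replicate 1, by 0.05 in null and 0.09 in wild-type cells, and Lamp1 differed by -0.04 in null and 0.05 in wild-type cells. For 8 of the 10 members the offset of replicate 1, averaged over genotypes, exceeded the genotype difference in size, as it did for 62.2% of all probe sets tested. The median size of the offset was 0.14 log2 units for members and 0.17 for all. What set replicate 1 apart was not tested.

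**Figure D4:**
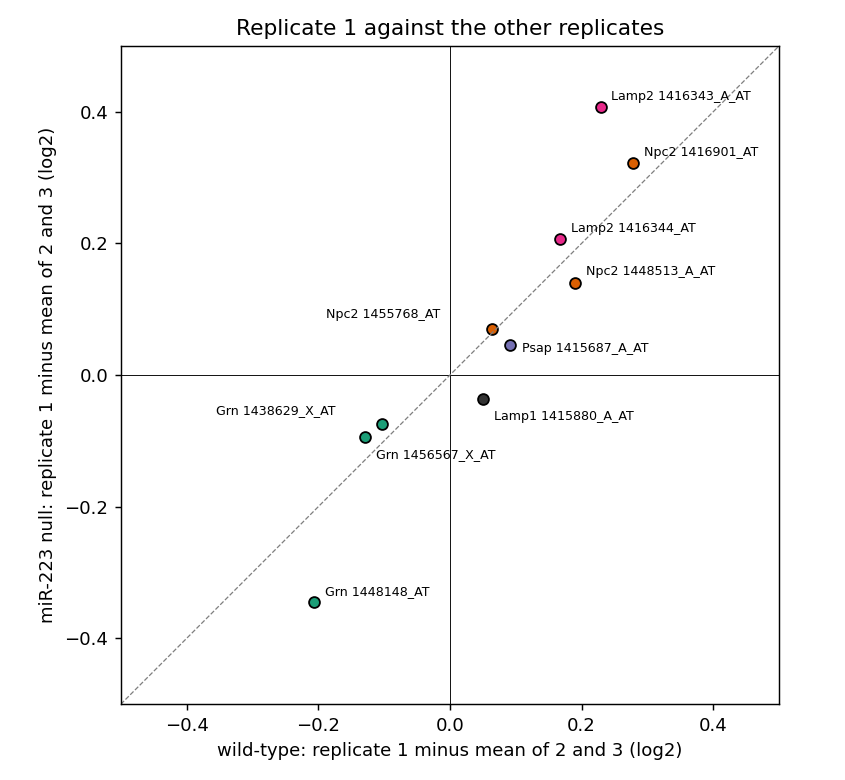
Level on the replicate 1 array minus the mean of replicates 2 and 3 in log2 units, in miR-223 null (vertical axis) and wild-type cells (horizontal axis), for the 10 probe sets; the dashed line marks equal values. The 3 Grn probe sets lie below 0 in both genotypes, the 3 Npc2 and 2 Lamp2 probe sets above 0 in both.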

How the data were processed

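The deposited values are log2 intensities of 45101 probe sets on 6 arrays. The base of the logarithm was inferred from the range of the values, and nearly equal array medians show that the arrays already shared one scale. Of the authors' software the submitters' processing notes list GCOS, and how background, normalization and probe summary were handled is not given in the sources used here. After removal of 64 control probe sets, a minimum mean at the 40th percentile (4.08) kept 27022. Differences, null minus wild type, came from limma 3.58.1 under R 4.3.3 (lmFit and eBayes, intensity trend), two-sided, with Benjamini-Hochberg adjustment over the 27022 and a threshold of 0.05. The replicate number as a block was the alternative. Same-numbered arrays deviated together in all 3 pairs (0.70, 0.30 and 0.48), so numbers pair the arrays by the rule used. This pairing rests on the data, not on the labels, and null 3 with wild-type 2 also reached 0.41, so how replicates 2 and 3 pair is not settled.

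The fit was first tested on simulated data with known answers, 50 random probe sets for each size of difference. Without the block, 0% of differences of 0.25 log2 units passed, 2% of 0.5, 38% of 1 and 96% of 2. With the block these shares were 0%, 16%, 46% and 98%. Differences up to 0.5 thus seldom passed in the simulation. Adjusted p depends on how many probe sets differ, and only 50 were changed for each size, while 2703 passed with the block on the measured arrays. The simulated shares are therefore no measure of what could pass there. With the block but without replicate 3, Npc2 1416901_AT passed at 0.18 and 1448513_A_AT at 0.20, though neither did on all 6 arrays. Not passing still does not show that a member was equal in the genotypes. Members are brighter than most probe sets, so their own rates may differ. Members and lists were chosen with earlier results of these data known. The rule for named genes took all 10 members, genes of lysosomal and cell type lists, and the genes most alike in pattern. The lists, the likeness and the mean over a gene's probe sets were not run, because only the members are paired with genes. Promoter and microRNA sequences are from RefSeq (GRCm38.p6), where all 5 genes matched by symbol.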

Additional observations from a re-analysis of the deposited data

How the results depend on the processing

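Over all probe sets, 51 passed without a block, and 0 to 58 when 1 array was left out. The count was 0 without null 2 or wild-type 2, where 2064 and 1753 had an unadjusted limma p under 0.05, 3 without null 3 and 1 without wild-type 3. It was 1072 without both replicate 1 arrays and 2703 with the replicate block (1339 higher, 1364 lower in null). With the block it was 191 without the intensity trend, and 606 to 2319 when 1 pair was left out, 2045 of these without replicate 1 and 606 without replicate 2. Chosen after seeing the data, the block gave 2562 after quantile normalization (1354 higher), 2546 after median centring (1273 higher), and 2417 when it set replicate 1 against the others. The cause was not tested.

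Of the members, 0 passed without a block in all fits on 5 or 6 arrays. It was 1 without both replicate 1 arrays, and 1 with the block as such, without the trend, after quantile normalization, after centring, and with replicate 1 set against the others. It was 1 to 3 when 1 pair was left out, 3 without replicate 3. Npc2 1455768_AT was among them each time: with the block it passed in 8 of 8 fits, at 0.59 to 0.65 log2 units (limma adjusted p 0.0029 to 0.0421). Without a block it passed in 1 of 13, at 0.59 to 0.67 (limma adjusted p 0.0188 to 0.401). On all 6 arrays the block changed no other member's call; without replicate 3 it also called Npc2 1416901_AT and 1448513_A_AT.

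When 1 array was left out without a block, Lamp1 ranged from 0.075 to 0.14, Lamp2 1416344_AT from 0.026 to 0.15, Npc2 1448513_A_AT from 0.10 to 0.22 and Grn 1456567_X_AT from 0.018 to 0.095, and none passed. Differences near 0 changed sign. Grn 1438629_X_AT gave 0.0014 after centring and 0.013 after quantile normalization, with or without the block, 0.012 with the block without replicate 3, and -0.035 to 0.024 when 1 array was left out (0.024 without null 1, 0.010 without wild-type 2, 0.023 without wild-type 3). Psap gave -0.0010 without null 1, -0.013 without null 3 and -0.033 without wild-type 2, with a range of -0.033 to 0.056. Lamp2 1416343_A_AT gave -0.048 without both replicate 1 arrays, with or without the block, -0.12 without null 1, -0.0084 without wild-type 2 and -0.045 without wild-type 3, with a range of -0.12 to 0.12. None of these passed. The number of arrays, 3 per genotype, limits the precision of every difference. Averaging a gene's probe sets was not run, because only the members are paired with genes. No pseudocount applies to values that already are logarithms.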
